A study of Mus musculus with 3 samples.

Results

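The CXC chemokine ligands and platelet factor genes are a family of small secreted or membrane-bound attractants, described here by 10 genes named by symbol (Cxcl1, Cxcl2, Cxcl3, Cxcl9, Cxcl10, Cxcl12, Cxcl14, Cxcl16, Pf4 and Ppbp) out of the 31053 genes counted. All 10 were found in each of the 3 libraries. Droplet-based single-cell RNA sequencing measured the transcripts of single mouse cells as counts of unique molecular identifiers (UMIs). Co-Mac and VD-Mac were bone marrow cells of C57/BL6 mice grown for 7 days with GM-CSF at 200 U/ml, either left untreated (Co-Mac) or given 1,25-dihydroxycholecalciferol (vitamin D3, VD3) at 1 µM for 24 h (VD-Mac). hSTSG held cells from human split-thickness skin that had lain under the skin of C57BL/6J mice for 14 days, pooled from 5 mice. Only mouse genes were counted, so the values were taken as those of host cells, which was not tested. The mice were not told apart, since no label ties a hashtag to a mouse. No replicates were available, with 1 library per group, so intervals are exact 95% intervals that cover counting error only, and no difference could be held against a spread between animals or dishes.

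Barcodes were kept with at least 300 genes, under 100000 gene UMIs and under 10% mitochondrial UMIs. This left 7257 of 7866 barcodes in Co-Mac, 8825 of 9794 in VD-Mac and 2144 of 2644 in hSTSG. The kept cells held 132574308, 116461484 and 22646544 gene UMIs, with medians per cell of 15804, 12089 and 6637.5. Levels are given as CPM, the UMIs of a gene scaled to a common total of gene UMIs, over the summed cells of a library, cluster or class, and 3 counts, taken as the floor, corresponded to 0.0226 CPM in Co-Mac, 0.0258 CPM in VD-Mac and 0.132 CPM in hSTSG. Co-Mac and VD-Mac shared 15 kept barcodes, Co-Mac and hSTSG 3, and VD-Mac and hSTSG 6.

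CXC ligands draw leukocytes along gradients through G protein-coupled receptors. Cxcl1, Cxcl2, Cxcl3 and the processed form of Ppbp call neutrophils through Cxcr2, Cxcl9 and Cxcl10 are induced by interferons and call activated T and NK cells through Cxcr3, and Cxcl12 from stromal cells holds leukocytes in tissue through Cxcr4. Cxcl16 is made as a transmembrane protein that is shed by Adam10 and bound by Cxcr6, Cxcl14 is abundant in skin, and Pf4 and Ppbp are stored in platelet granules, with Pf4 also transcribed in some macrophages.

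The genes carry the identifiers ENSMUSG00000029380 (Cxcl1), ENSMUSG00000058427 (Cxcl2), ENSMUSG00000029379 (Cxcl3), ENSMUSG00000029417 (Cxcl9), ENSMUSG00000034855 (Cxcl10), ENSMUSG00000061353 (Cxcl12), ENSMUSG00000021508 (Cxcl14), ENSMUSG00000018920 (Cxcl16), ENSMUSG00000029373 (Pf4) and ENSMUSG00000029372 (Ppbp). In the RefSeq annotation of GRCm38.p6, 7 of the members lay on chromosome 5. Among coding genes, Ppbp, Pf4 and Cxcl3 followed each other directly, Cxcl1 and Cxcl2 lay next to each other, and only Art3 stood between Cxcl9 and Cxcl10. Cxcl12 lay on chromosome 6, Cxcl14 on chromosome 13 and Cxcl16 on chromosome 11.

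Which host cells in the graft carried each ligand was read from 12 clusters, built without the listed genes and named by marker sets, so that "-like" marks a name that rests on RNA alone. The clusters were neutrophil-like with Il1f9 (474 cells, median 2261.5 UMIs), Trem2 macrophage-like (363 cells, 15514), monocyte-like (350 cells, 9667.5, with MHC class II genes but 0 monocyte markers among the 10 leading genes), T/NK-like with Gzma (178 cells, 5552), Cd163 macrophage-like (159 cells, 11644), fibroblast-like (143 cells, 25321), B lineage-like (127 cells, 13812, with the dendritic cell genes Ccr7, Flt3 and Fscn1 among the leading genes) and T/NK-like with Il17a (123 cells, 5520). Smaller ones were a cluster of mixed neutrophil markers with Ngp (40 cells, 7812.5, drawn as neutrophil-like although 3 precursor and 2 neutrophil markers were among its 10 leading genes), endothelial-like (25 cells, 12670) and mast/basophil-like (13 cells, 4449). A further cluster of 149 cells with a median of 1470 UMIs, led by haemoglobin genes and Mcpt8, was left unnamed.

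The graft's neutrophil attractants were highest in different cells. Among the 11 clusters of at least 25 cells, Cxcl2 and Cxcl3 were highest in neutrophil-like cells with Il1f9, whereas Cxcl1 was highest in fibroblast-like cells. Over the whole library Cxcl1 stood at 683 CPM, Cxcl2 at 5122 CPM and Cxcl3 at 212 CPM.

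Cxcl2 reached 33346 CPM (33011 to 33682) in neutrophil-like cells with Il1f9, 15627 CPM in the unnamed cluster, 5642 CPM in Trem2 macrophage-like, 3900.5 CPM in monocyte-like and 3797 CPM in Cd163 macrophage-like cells, the last 2 being close enough for their intervals to overlap. It was 1234 CPM in fibroblast-like cells and lowest in T/NK-like cells with Gzma, at 186 CPM. After thinning every cell to 2000 UMIs, 98.1% of 317 neutrophil-like cells with Il1f9 held a Cxcl2 UMI (157 shallower cells left out; 97.5% of all 474 without thinning), against 16.2% of 173 T/NK-like cells with Gzma (5 left out; 41.0% without thinning). Both T/NK-like clusters served as cells that should lack the gene, and in the one with Il17a the share was 34.4% of 122 cells (52.0% without thinning), at 1047 CPM. The neutrophil-like cells had a lower median depth than either, 2261.5 against 5552 and 5520 UMIs. The shares in the fibroblast-like and endothelial-like cells, 35.5% and 24.0%, lay close to those of the T/NK-like cells.

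The neutrophil-like cells with Il1f9 held 32.8% of the Cxcl2 UMIs of the graft and the Trem2 macrophage-like cells 33.8%. In the 13 mast/basophil-like cells Cxcl2 stood at 64661 CPM (62685 to 66683), above any of the larger clusters, and each of these 13 cells held a Cxcl2 UMI. With cells limited to under 5% mitochondrial UMIs the highest cluster was an unnamed one of 50 cells at 35925 CPM.

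Cxcl3 was at 1376 CPM (1309 to 1446) in neutrophil-like cells with Il1f9, 1078 CPM in the unnamed cluster and 278 CPM in Trem2 macrophage-like cells, and at 431 CPM (284 to 627) in the 13 mast/basophil-like cells, from 27 UMIs. It was at 10.1 CPM in fibroblast-like cells. A Cxcl3 UMI was present in 40.1% of the thinned neutrophil-like cells (36.9% without thinning) and in 2.89% of the thinned T/NK-like cells with Gzma (6.18% without thinning) and 10.7% of those with Il17a (14.6% without thinning), where it was at 149 CPM. The Trem2 macrophage-like cells, with their larger RNA content, held 40.2% of the Cxcl3 UMIs of the graft and the neutrophil-like cells with Il1f9 32.7%. The cluster with Ngp, led by granule genes such as Camp and Ltf, had Cxcl2 at 1045 CPM and Cxcl3 at 14.5 CPM from 5 UMIs.

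Cxcl1 reached 2932 CPM (2876 to 2988) in fibroblast-like cells, which held 69.3% of its UMIs in the graft. The unnamed cluster at 682 CPM and endothelial-like cells at 616 CPM came next with overlapping intervals, before Trem2 macrophage-like cells at 417 CPM, neutrophil-like cells with Il1f9 at 263 CPM and Cd163 macrophage-like cells at 238 CPM. A Cxcl1 UMI was present in 61.7% of 141 thinned fibroblast-like cells (2 left out; 81.1% without thinning) and in 4.62% of the thinned T/NK-like cells with Gzma (10.7% without thinning), at median depths of 25321 and 5552 UMIs. The fibroblast-like cells thus had the highest level of Cxcl1, and the neutrophil-like cells with Il1f9 that of Cxcl2 among clusters of at least 25 cells, with macrophage-like cells carrying both.

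The interferon-induced ligands Cxcl9 and Cxcl10 were highest in fibroblast-like cells as well. Over the whole library Cxcl9 stood at 61.5 CPM and Cxcl10 at 195 CPM. Fibroblast-like cells held Cxcl9 at 277 CPM (260 to 294) and endothelial-like cells at 120 CPM (93.2 to 152), followed by B lineage-like cells at 38.3 CPM and monocyte-like cells at 24.0 CPM. Cxcl10 was at 1001 CPM (969 to 1034) in fibroblast-like cells, 188 CPM in endothelial-like and 142 CPM in neutrophil-like cells with Il1f9, the last 2 with overlapping intervals. The fibroblast-like cells held 72.6% of the Cxcl9 UMIs and 82.7% of the Cxcl10 UMIs.

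After thinning, 22.0% of fibroblast-like cells held a Cxcl9 UMI and 40.4% a Cxcl10 UMI (39.9% and 53.1% without thinning), against 0 of 173 T/NK-like cells with Gzma for either gene (1.12% and 5.06% without thinning) and 0 and 2.46% of 122 T/NK-like cells with Il17a. Within the fibroblast-like cluster the 10% of cells richest in Cxcl9 carried 73.9% of its UMIs. The 57 fibroblast-like cells with a Cxcl9 UMI (median 26788 UMIs) had Cxcl10 at 1902 CPM, and the 86 without (median 22095.5 UMIs) had it at 272 CPM. In the same split Cxcl14 stood at 542 and 106 CPM and Cxcl1 at 3920.4 and 2132 CPM, while Cxcl2 hardly differed, at 1276 and 1200.3 CPM. Split by Cxcl10 instead, Cxcl2 did differ. It was at 1677 CPM in the 76 cells with a Cxcl10 UMI (median 27493 UMIs) and 512 CPM in the 67 without (median 17091 UMIs). Cxcl10 and Cxcl14 were thus higher in the fibroblast-like cells that held Cxcl9, which were also the deeper ones, as a description of 143 cells from 1 library.

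Cxcl12 and Cxcl14 had the largest shares of their UMIs in fibroblast-like cells among the 10 members. Cxcl12 reached 1393 CPM (1355 to 1432) in fibroblast-like cells and 561 CPM (501 to 626) in endothelial-like cells, and it was at 8.82 CPM or less in each of the other 10 clusters. Fibroblast-like cells held 93.0% of its UMIs, with a UMI in 75.2% of thinned cells (94.4% without thinning) against 0.578% of thinned T/NK-like cells with Gzma (2.25% without thinning). Cxcl14 stood at 301 CPM (283 to 319) in fibroblast-like cells, which held 90.7% of its UMIs, and at 12.1 CPM in Trem2 macrophage-like cells. The endothelial-like cells, second for Cxcl12, had 1 Cxcl14 UMI, and the 474 neutrophil-like cells with Il1f9 had 0, under a floor of 2.63 CPM.

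Cxcl14 was unevenly spread among the fibroblast-like cells: a UMI was present in 17.7% of them after thinning (31.5% without), against 0 of 173 T/NK-like cells with Gzma (1.12% without), and the richest 10% of cells carried 87.4% of the Cxcl14 UMIs. For Cxcl12 the richest 10% carried 34.2%. The 45 fibroblast-like cells with a Cxcl14 UMI (median 28099 UMIs) had Cxcl12 at 1980.4 CPM, and the 98 without (median 22425 UMIs) at 1063 CPM.

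Cxcl16, the transmembrane ligand of Cxcr6, was carried by macrophage-like and monocyte-like cells and by the cluster named B lineage-like, whose leading genes include those of dendritic cells. Its level over the library was 286 CPM, with 509.9 CPM (493 to 527) in Trem2 macrophage-like cells, 380.5 CPM in B lineage-like, 331 CPM in Cd163 macrophage-like, 323 CPM in unnamed and 297 CPM in monocyte-like cells. The intervals of each neighbouring pair from the B lineage-like to the monocyte-like cells overlapped. It was low in fibroblast-like cells (70.3 CPM), neutrophil-like cells with Il1f9 (20.2 CPM) and T/NK-like cells with Gzma (17.0 CPM). A UMI was present in 59.0% of 356 thinned Trem2 macrophage-like cells (7 left out; 95.3% without thinning) and in 2.31% of thinned T/NK-like cells with Gzma (4.49% without thinning), at median depths of 15514 and 5552 UMIs. Under 5 other settings (resolution 0.3 or 0.8, 30 principal components, under 5% mitochondrial UMIs, doublet scores) a separate DC-like cluster of 30 to 40 cells was highest, at 803 to 808 CPM.

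Pf4, which binds heparan sulphate and is best known from platelets, was at 788 CPM over the library and belonged to macrophage-like cells. It stood at 1921 CPM (1888 to 1954) in Trem2 macrophage-like cells, which held 74.7% of its UMIs, at 1543 CPM in the unnamed cluster and at 1256 CPM (1210 to 1303) in Cd163 macrophage-like cells, with 213 CPM in B lineage-like, 174 CPM in monocyte-like and 15.3 CPM in T/NK-like cells with Gzma. By share of thinned cells the order of both macrophage-like clusters was the reverse, with a UMI in 58.1% of the Trem2 and 71.8% of the Cd163 macrophage-like cells (80.4% and 91.8% without thinning), against 2.31% of T/NK-like cells with Gzma (4.49% without thinning). The richest 10% of Trem2 macrophage-like cells carried 64.5% of their Pf4 UMIs. The highest cluster changed with the clustering: it was a macrophage-like cluster of 92 cells at 4120.0 CPM at resolution 0.8, and the Cd163 macrophage-like cluster, then of 208 cells, at 2905 CPM with cells under 5% mitochondrial UMIs.

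Ppbp was rare in the graft, with 123 UMIs or 5.43 CPM. Trem2 macrophage-like cells held 109 of them, at 15.7 CPM (12.9 to 18.9), in 7 of 363 cells (1.93%) without thinning and in 2 of 356 (0.562%) after it. The T/NK-like cells with Gzma had 0 Ppbp UMIs, with an upper limit of 3.14 CPM. The 8 platelet markers other than Pf4 and Ppbp (Itga2b, Gp9, Gp1bb, Gp1ba, Tubb1, Treml1, Clec1b and Gp6) summed to 15.4 CPM in the Trem2 macrophage-like and 0.442 CPM in the Cd163 macrophage-like cells, with 4 and 1 of the 8 detected and Clec1b the most abundant in the former. In the other clusters they summed to between 0 and 17.6 CPM, except for 207 CPM from 1 marker, Itga2b, in the 13 mast/basophil-like cells. Their part in the Pf4 and Ppbp levels was not tested.

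**Figure D1:**
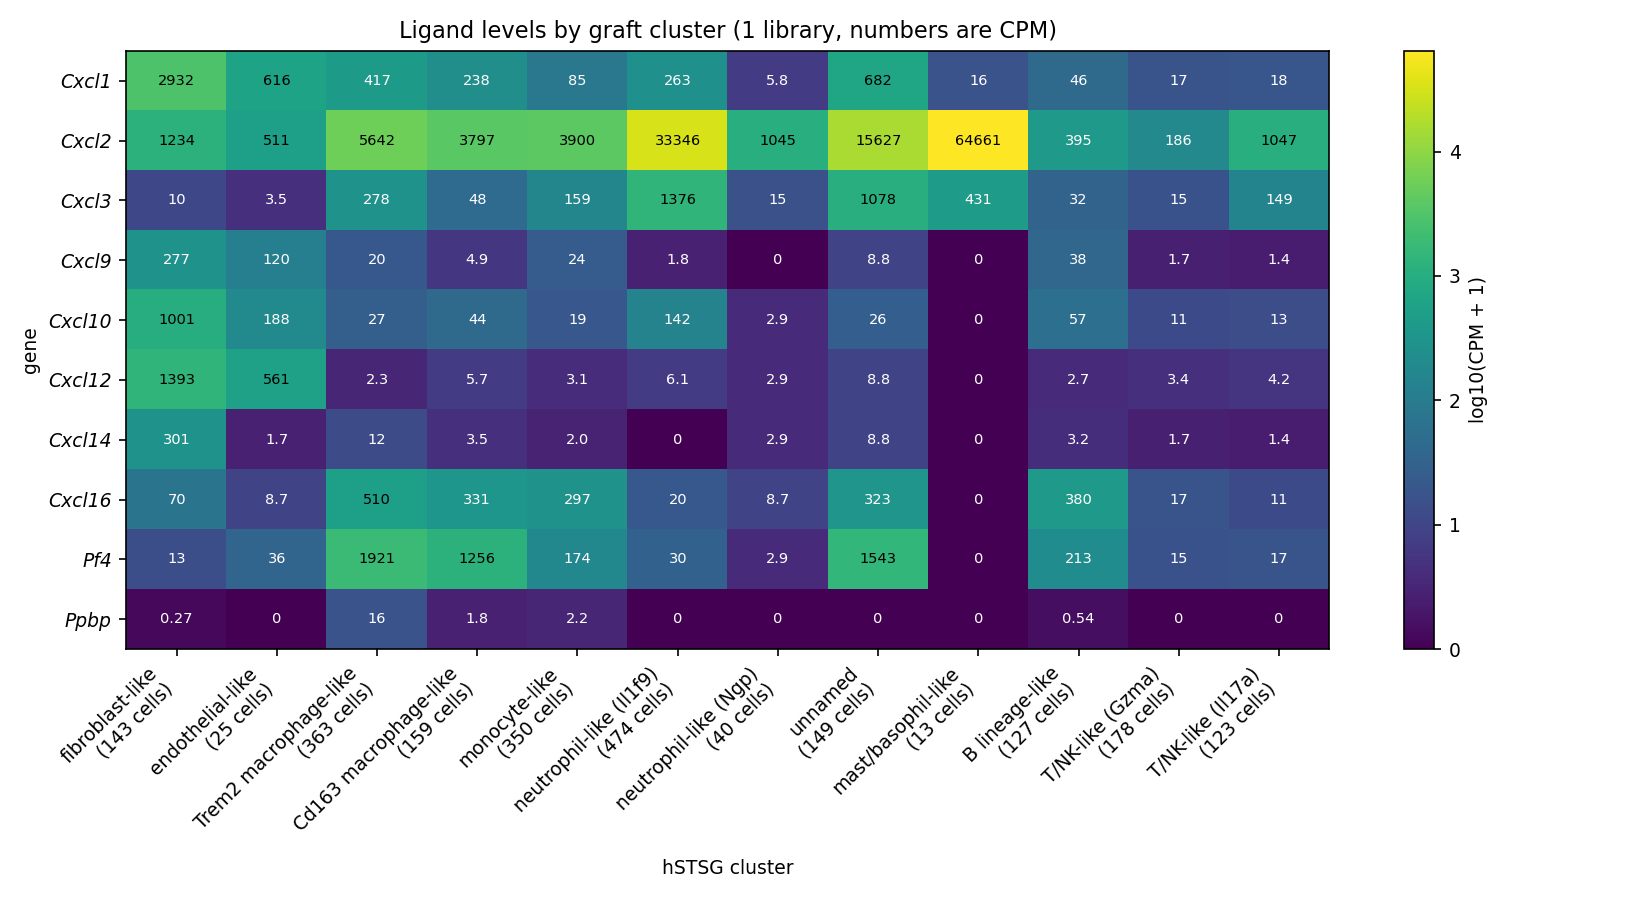
Level of each ligand in the 12 clusters of the hSTSG library, as CPM over the summed cells of a cluster (numbers) and as log10(CPM + 1) (colour). Cxcl2 is highest in the 13 mast/basophil-like cells (64661 CPM), followed by neutrophil-like cells with Il1f9 (33346 CPM), Cxcl12 in fibroblast-like cells (1393 CPM) and Pf4 in Trem2 macrophage-like cells (1921 CPM).

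Counted by their highest cluster among the 11 clusters of at least 25 cells, 5 of the 10 members (Cxcl1, Cxcl9, Cxcl10, Cxcl12 and Cxcl14) peaked in fibroblast-like cells, where 12.1% of the 11405 genes with at least 10 CPM in some cluster peaked. A further 2 (Cxcl2 and Cxcl3) peaked in neutrophil-like cells with Il1f9, against 6.94% of genes, and 3 (Cxcl16, Pf4 and Ppbp, the last from 109 UMIs in 7 cells) in Trem2 macrophage-like cells, against 3.52%. Members made up 6.51% of all UMIs of the 13 mast/basophil-like cells, 3.52% of those of neutrophil-like cells with Il1f9, 1.93% in the unnamed cluster, 0.884% of those of Trem2 macrophage-like cells and 0.723% of those of fibroblast-like cells, and 0.0269% in T/NK-like cells with Gzma. Of the 3 counts, that of the fibroblast-like cells was 5 under each of the 9 other settings tried. The Trem2 macrophage-like count fell to 1 (Ppbp) at resolution 0.8 and with cells under 5% mitochondrial UMIs, and the neutrophil-like count to 1 (Cxcl3) under that limit and with clusters of any size. Cxcl16, then highest in a DC-like cluster, also left the Trem2 macrophage-like count at resolution 0.3, with 30 principal components and without the highest doublet scores.

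The RNA of the receptors of these ligands was read in the same clusters, with no measure of a response. Cxcr2, the receptor for Cxcl1, Cxcl2 and Cxcl3, stood at 794 CPM (743 to 848) in neutrophil-like cells with Il1f9 and at 719.8 CPM (633 to 815) in the cluster with Ngp, where Cxcl2 and Cxcl3 were low, and at 26.4 CPM or less elsewhere. Cxcr1 was found at 39.4 CPM in the Il1f9 set. Cxcr6, the receptor for Cxcl16, was at 1737 CPM (1641 to 1836) in T/NK-like cells with Il17a and 314 CPM (283 to 348) in those with Gzma, where Cxcl16 itself was low. Cxcr3, the receptor for Cxcl9 and Cxcl10, was at 40.8 CPM (30.1 to 54.1) in T/NK-like cells with Gzma, from 48 UMIs, and at 5.61 CPM or less in the other clusters.

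Cxcr4, the receptor for Cxcl12, was broadly present, from 109 CPM in endothelial-like cells to 1069 CPM in T/NK-like cells with Il17a and 1292 CPM in the 13 mast/basophil-like cells, and was at 9.30 CPM in the fibroblast-like cells that held most Cxcl12. Ackr3, which takes up Cxcl12 without classical signalling, was highest in those same fibroblast-like cells at 403 CPM (383 to 424), with 102 CPM in endothelial-like cells. Ackr1, a scavenger of inflammatory chemokines on venules, was at 36.5 CPM in endothelial-like and 17.8 CPM in fibroblast-like cells. Of the CXC ligands outside the 10, Cxcl5 stood at 603 CPM (578 to 629) and Cxcl13 at 724 CPM (697 to 752) in fibroblast-like cells, Cxcl15 reached 0.877 CPM at most, Cxcl17 had no UMI, and Cxcl11 was not among the counted genes.

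**Figure D2:**
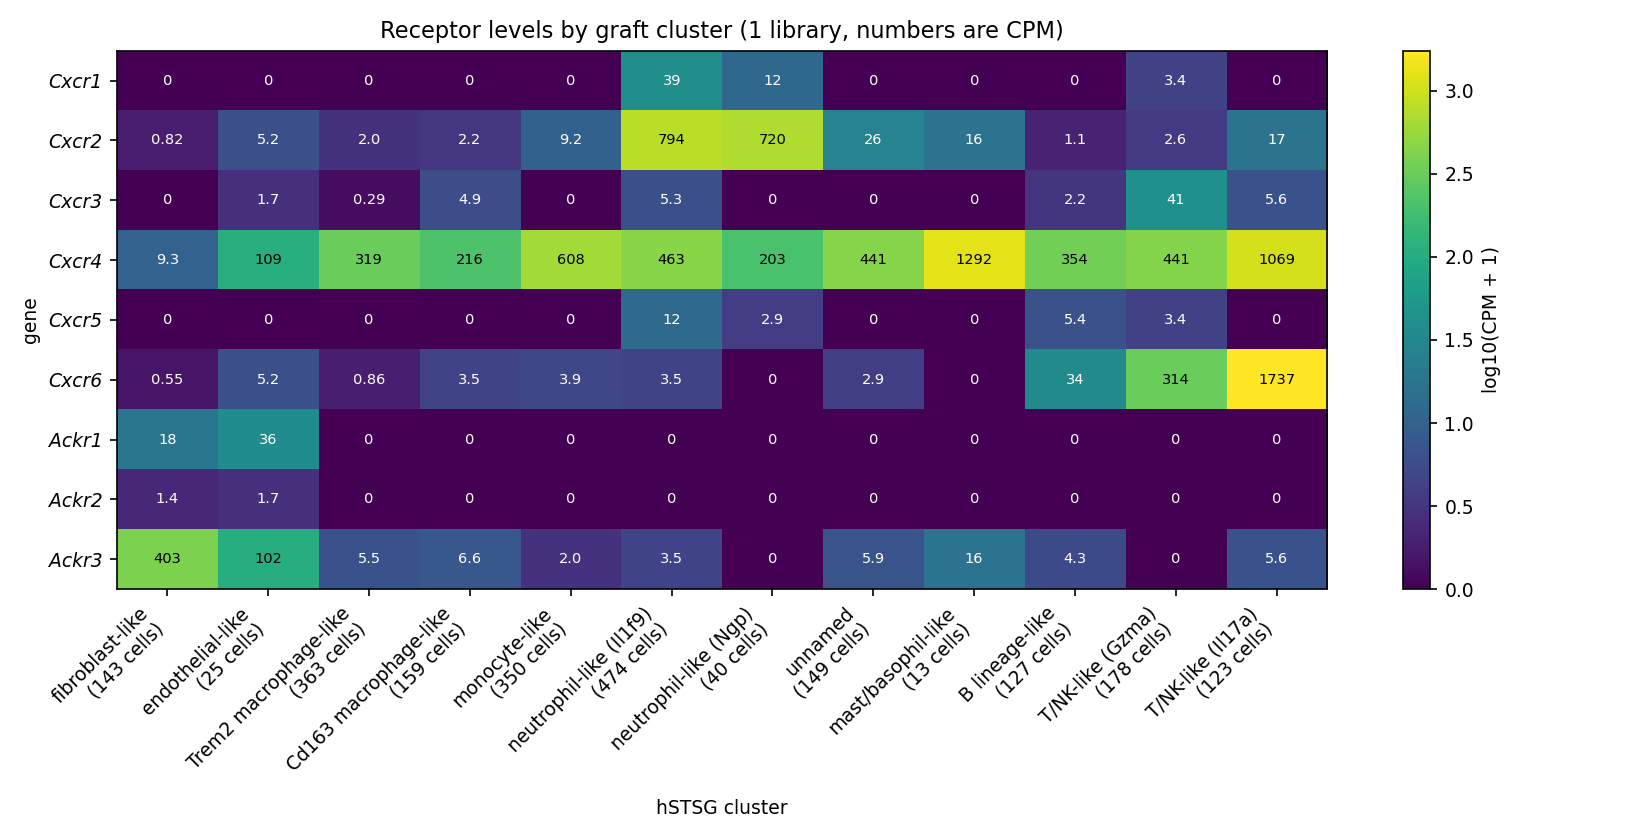
Level of each CXC receptor in the same 12 clusters of the hSTSG library, as CPM (numbers) and log10(CPM + 1) (colour). Cxcr2 is highest in neutrophil-like cells with Il1f9 (794 CPM), next to the cluster of mixed markers with Ngp (719.8 CPM), Cxcr6 in T/NK-like cells with Il17a (1737 CPM) and Ackr3 in fibroblast-like cells (403 CPM).

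Cytokines known to induce these ligands lay partly in other cells. Il1b was at 5784 CPM and Tnf at 2256 CPM in neutrophil-like cells with Il1f9, which also had Il1a at 1129.8 CPM. The 13 mast/basophil-like cells, highest for Cxcl2, held Il1b at 32434 CPM, Il6 at 17645 CPM and Tnf at 798 CPM. In larger clusters Il6 was at 805 CPM in the unnamed and 645 CPM in the fibroblast-like cells. Il17a, an inducer of Cxcl1 and Cxcl5 in stromal cells, was at 2023 CPM (1920 to 2130) in the T/NK-like cells named for it and at 0.274 CPM in fibroblast-like cells. Ifng, the main inducer of Cxcl9, was at 40.0 CPM (29.4 to 53.2) in T/NK-like cells with Gzma and had no UMI in the fibroblast-like cells. Among the 16 genes of interferon-gamma induction, Iigp1, a GTPase gene of that response, was at 453 CPM in the fibroblast-like and 455 CPM in the endothelial-like cells, the clusters highest for Cxcl9 and Cxcl10, and at 78.6 CPM or less in the others. The 16 genes together did not follow this: they summed to 1518 CPM in fibroblast-like and 1705 CPM in endothelial-like cells, against 2883 CPM in neutrophil-like cells with Il1f9 and 2799 CPM in T/NK-like cells with Gzma.

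The genes most like each member over the 11 clusters, out of 6144 with at least 50 CPM in some cluster, were named by Pearson correlation of log2(CPM + 5), as a description of clusters that share 1 library. Cxcl2 went with Cebpb (r = 0.928), Tlcd2 (0.917) and Il1a (0.917), and Cxcl3 with Il1a (0.932), Sqstm1 (0.920) and Cstb (0.919). Cxcl12 went with Fkbp10 (0.997), Lama4 (0.997) and Fbln2 (0.996), Cxcl14 with Lox (0.987), Col14a1 (0.983) and Bdh2 (0.983), and Cxcl1 with Rcan1 (0.947), Pnp (0.921) and P4hb (0.900). Cxcl9 went with Htra1 (0.962), Tpst1 (0.958) and Plat (0.948), and Cxcl10 with Lpp (0.961), Fstl1 (0.899) and Col6a1 (0.887). Cxcl16 went with Mfsd12 (0.958), Slc29a3 (0.944) and P2rx4 (0.937), and Pf4 with Slc7a2 (0.962), C3ar1 (0.957) and Tbxas1 (0.957).

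In the cultures the question was what 24 h of VD3 did to the same genes. The cultures, titled macrophages, were mixed: clusters with dendritic cell (DC-like), macrophage, neutrophil and neutrophil precursor markers held 2715, 1273, 885 and 1656 cells of Co-Mac and 3432, 1185, 1025 and 1082 cells of VD-Mac, and 60 and 75 cells formed a mast/basophil-like cluster. Clusters that could not be named held 631 cells of Co-Mac and 1938 of VD-Mac, and a cluster of mixed markers, not compared, held 37 and 88. For the DC-like, macrophage-like and precursor-like classes the cells of each culture lay mostly in clusters of their own, and a cluster mostly of 1 library may be that library, not a type. The VD-Mac cells of the DC-like class lay mostly in cluster 0 (score 0.53) and those of the macrophage-like class in cluster 6, each with 0 markers of its set among the 10 leading genes. The Co-Mac macrophage-like cells lay mostly in cluster 5, which was named by the Trem2 set and joined with cluster 6. A gene was called lower or higher where its levels differed at least 2-fold and the greater of them reached 10 CPM, with no test.

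Over all kept cells VD-Mac had less RNA of 3 members than Co-Mac, Ppbp, Cxcl2 and Cxcl3, of which only Ppbp was still called among cells under 5% mitochondrial UMIs. These were 3 of the 5 members that reached 10 CPM in a culture, where 4.63% of 7732 genes were lower; 0 members were higher, against 2.16% of genes. Pf4 was just short of 2-fold, Cxcl16 hardly differed, and the other 5 members were under 10 CPM in both cultures. The median log2 ratio was -1.23 over the 5 tested members and -0.10 over all tested genes. For these and the other list medians 1 CPM was added to each level, unlike for the ratios of single genes. Size factors based on the median of ratios would take a shift of -0.09 out of each ratio, raising it.

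**Figure D3:**
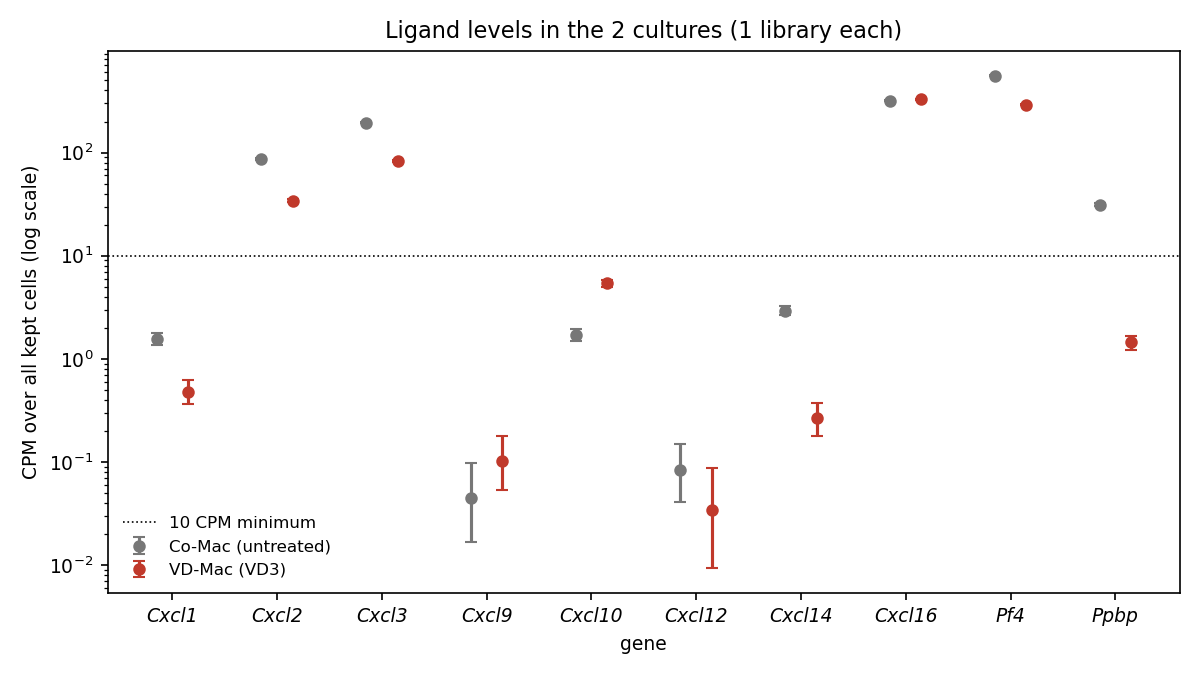
Level of each ligand over all kept cells of the untreated (Co-Mac) and VD3-treated (VD-Mac) cultures, in CPM on a log scale, with points for the library value, bars for exact 95% counting intervals and a dotted line at 10 CPM. Ppbp falls from 31.1 to 1.44 CPM, while Cxcl16 stays near 319 and 329 CPM.

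Ppbp, the precursor of a neutrophil-attracting platelet peptide, showed the widest gap. It was at 31.1 CPM (30.2 to 32.1) in Co-Mac and 1.44 CPM (1.23 to 1.68) in VD-Mac, 21.6-fold lower, a log2 ratio of -4.43 (-4.66 to -4.21). Of the 7732 tested genes, 6 had a ratio this low or lower. The difference remained past 2-fold in all 7 alternatives over all cells, at -4.52 to -4.10.

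In macrophage-like cells, which held most Ppbp UMIs of Co-Mac, Ppbp was at 89.8 CPM in Co-Mac (cluster 5) and 3.88 CPM in VD-Mac (cluster 6), a log2 ratio of -4.53 (-4.88 to -4.21). In precursor-like cells it was at 26.2 CPM in Co-Mac (cluster 3) and 1.73 CPM in VD-Mac (cluster 7), a log2 ratio of -3.92. That call was lost at resolution 0.8, where Ppbp was under 10 CPM in both cultures. The ratio there, 2.19, came from levels too low to give a direction. With each culture clustered alone the ratio was 0.46, short of 2-fold, and Ppbp was not called. A Ppbp UMI was present in 8.04% and 0.422% of the thinned macrophage-like cells of Co-Mac and VD-Mac (1268 and 1185 cells; 23.9% and 3.46% without thinning). The thinned DC-like cells, taken as the cells that should lack it, had 0.0737% in Co-Mac and 0 of 3425 in VD-Mac (0.700% and 0.117% without thinning), at median depths of 14445 and 13616.5 UMIs against 21119 and 15168 in the macrophage-like cells. The shares in macrophage-like cells were thus above those in DC-like cells in both cultures, from 102 cells with a UMI in Co-Mac and 5 in VD-Mac after thinning.

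Pf4 was at 556 CPM (552 to 560) in Co-Mac and 290.2 CPM (287 to 293) in VD-Mac, a log2 ratio of -0.94 (-0.96 to -0.92). Part of these counts lay in a few cells with platelet markers inside the mast/basophil-like cluster. In Co-Mac, 6 such cells with at least 3 of the 8 platelet markers held 7325 Pf4 UMIs, 9.93% of the library's total, at 97194 CPM, and 0 of them held the basophil gene Mcpt8. In VD-Mac, 9 such cells held 6102 Pf4 UMIs (18.1%) and 3 cells outside the cluster another 621 (1.84%). The remaining 54 and 66 cells of the cluster held 7 and 57 Pf4 UMIs.

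Without that cluster, a setting chosen after seeing the data, Pf4 was at 503 CPM in Co-Mac and 239 CPM in VD-Mac, a log2 ratio of -1.08 (-1.10 to -1.06), past 2-fold. The 8 platelet markers summed to 9.41 CPM in Co-Mac and 10.5 CPM in VD-Mac over all cells, with 8 of 8 detected in each, and to 10.7 and 12.2 CPM in macrophage-like cells, with 5 and 4 detected and Clec1b the most abundant. Pf4 in macrophage-like cells was at 1239.6 CPM in Co-Mac and 756 CPM in VD-Mac (-0.71), with a UMI in 55.2% and 30.6% of thinned cells (82.2% and 57.6% without thinning) against 1.51% and 0.847% of DC-like cells (8.29% and 4.95%). In neutrophil-like cells, where both cultures shared cluster 2, Pf4 was at 98.1 and 24.4 CPM, a log2 ratio of -2.01 (-2.36 to -1.68), which at resolution 0.8 was -0.49.

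Cxcl2 was at 86.7 CPM (85.1 to 88.3) in Co-Mac and 34.1 CPM (33.0 to 35.1) in VD-Mac, a log2 ratio of -1.35 (-1.40 to -1.30). Cxcl3 was at 195 CPM (192.8 to 197.5) and 82.6 CPM (80.9 to 84.2), a log2 ratio of -1.24 (-1.27 to -1.21). Cxcl1 was scarce, at 1.57 and 0.481 CPM. The lower level of these neutrophil attractants over all cells depended on which cells were kept. With only the 3125 and 3619 cells under 5% mitochondrial UMIs, Cxcl2 was at 60.4 and 47.0 CPM (-0.36), Cxcl3 at 77.2 and 78.3 CPM (0.02) and Pf4 at 342 and 357 CPM (0.06), and 1 member, Ppbp, was lower against 5.25% of genes and 0 higher against 1.96%. These cells were unlike mixtures, with 623 and 1640 unnamed, 575 and 169 precursor-like and 231 and 106 macrophage-like cells in Co-Mac and VD-Mac. With each class weighted by its share of the Co-Mac UMIs, the log2 ratio of Cxcl3 was -0.95, short of 2-fold, and that of Cxcl2 was -1.14. As a mean over cells of CPM, Cxcl2 was at 75.4 and 52.3 CPM (-0.53) and no longer called, while Cxcl3 (-1.20) was and Pf4 (-1.07) came to be.

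By class, Cxcl2 lay on either side of no difference. In neutrophil-like cells it was at 199 CPM (185 to 212) in Co-Mac and 278 CPM (261 to 296) in VD-Mac, a log2 ratio of 0.49 (0.35 to 0.62), and it was higher in VD-Mac in each of 5 other settings. In precursor-like cells it was at 111 CPM (108 to 113) and 26.7 CPM (24.8 to 28.7), a log2 ratio of -2.05 (-2.16 to -1.94), but at resolution 0.8 it was 1.67, so the classes then no longer differed in direction. The difference between the classes was not tested. A Cxcl2 UMI was present in 16.3% and 17.1% of thinned neutrophil-like cells (618 of 885 and 726 of 1025 cells; 21.7% and 23.4% without thinning), in 15.2% and 3.34% of thinned precursor-like cells (48.1% and 18.4%), and in 0.295% and 0.175% of thinned DC-like cells (2.28% and 0.962%).

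In macrophage-like cells Cxcl2 was at 155 and 83.1 CPM (-0.90) and Cxcl3 at 518 and 342 CPM (-0.60). These cells had median mitochondrial shares of 6.04% in Co-Mac and 7.02% in VD-Mac. In the 231 and 106 of them under 5%, a setting chosen after seeing the data, the ratios lay on the other side: Cxcl2 was at 131 and 187 CPM (0.52, 0.32 to 0.71), Cxcl3 at 283 and 824 CPM (1.54, 1.43 to 1.65) and Pf4 at 595 and 1205 CPM (1.02, 0.94 to 1.10). Ppbp remained lower, at 68.7 and 3.67 CPM. Cxcl3 in precursor-like cells was at 182 and 49.7 CPM (-1.88, -1.96 to -1.79), which at resolution 0.8 was 2.58, and in neutrophil-like cells at 114 and 59.8 CPM (-0.94), which at resolution 0.8 became 13.0 and 37.7 CPM (1.54). The 575 and 169 precursor-like cells under 5% mitochondrial UMIs kept the direction of all precursor-like cells. Cxcl2 was there at 74.35 and 14.9 CPM (-2.32, -2.76 to -1.91) and Cxcl3 at 82.9 and 28.6 CPM (-1.54, -1.85 to -1.23).

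Over all cells Cxcl10 was higher in VD-Mac, at a low level. It was at 1.70 CPM (1.49 to 1.94) in Co-Mac and 5.42 CPM (5.00 to 5.86) in VD-Mac, with a log2 ratio of 1.67 (1.45 to 1.89) that was not called at these levels and was 0.66 in cells under 5% mitochondrial UMIs. In precursor-like cells it was at 2.44 and 13.9 CPM, a log2 ratio of 2.51 (2.21 to 2.81), with a UMI in 0.242% and 2.13% of thinned cells (4.29% and 9.24% without thinning) against 0.295% and 0.146% of DC-like cells (1.66% and 1.28%). The Co-Mac share was thus no higher than that in DC-like cells. In DC-like cells the level was 1.45 and 1.02 CPM (-0.51, -1.07 to 0.05), and in macrophage-like cells 0.667 and 7.85 CPM (3.56), from 7 and 15 cells with a UMI, which turned to -1.23 (-4.41 to 0.87) under 5% mitochondrial UMIs. This was the only ratio of a member in precursor-like cells called in the same direction in all 5 other settings. Its family partner Cxcl9 had 6 UMIs in Co-Mac and 12 in VD-Mac, a ratio whose interval ran from -0.34 to 2.89.

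The stromal ligand Cxcl12 had 11 UMIs in Co-Mac and 4 in VD-Mac, too few to place the ratio, whose interval ran from -3.38 to 0.48. Cxcl14 was at 2.92 CPM (2.64 to 3.22) in Co-Mac and 0.266 CPM (0.181 to 0.378) in VD-Mac, with a log2 ratio of -3.46 (-4.03 to -2.93) that was not called at these levels. In Co-Mac 62.3% of its UMIs lay in macrophage-like cells of cluster 5, where it was at 8.04 CPM, against 0.994 CPM in the macrophage-like cells of VD-Mac.

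Cxcl16 was nearly level between the cultures, at 319 CPM (316 to 322) in Co-Mac and 329 CPM (326 to 332) in VD-Mac, a log2 ratio of 0.05 (0.03 to 0.07) that was -0.36 with the classes weighted as in Co-Mac and -0.23 as a mean over cells of CPM. Most of it lay in DC-like cells, with 67.0% of the Co-Mac UMIs in cluster 1 and 79.1% of the VD-Mac UMIs in cluster 0. In DC-like cells Cxcl16 was at 675 and 597 CPM (-0.18, -0.20 to -0.16), with a UMI in 70.1% and 66.9% of thinned cells (2712 and 3425 cells; 98.0% and 96.4% without thinning) against 5.66% and 4.41% of the thinned neutrophil-like cells (10.8% and 5.76%), at median depths of 2787 and 2672 UMIs. In macrophage-like cells it was at 205 CPM (200.3 to 211) and 80.3 CPM (76.5 to 84.4), a log2 ratio of -1.35 (-1.43 to -1.27). That call was lost at resolution 0.3 (-0.36), with each culture clustered alone (-0.25) and without the cells of highest doublet score (-0.80), and stood at -2.28 in cells under 5% mitochondrial UMIs.

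**Figure D4:**
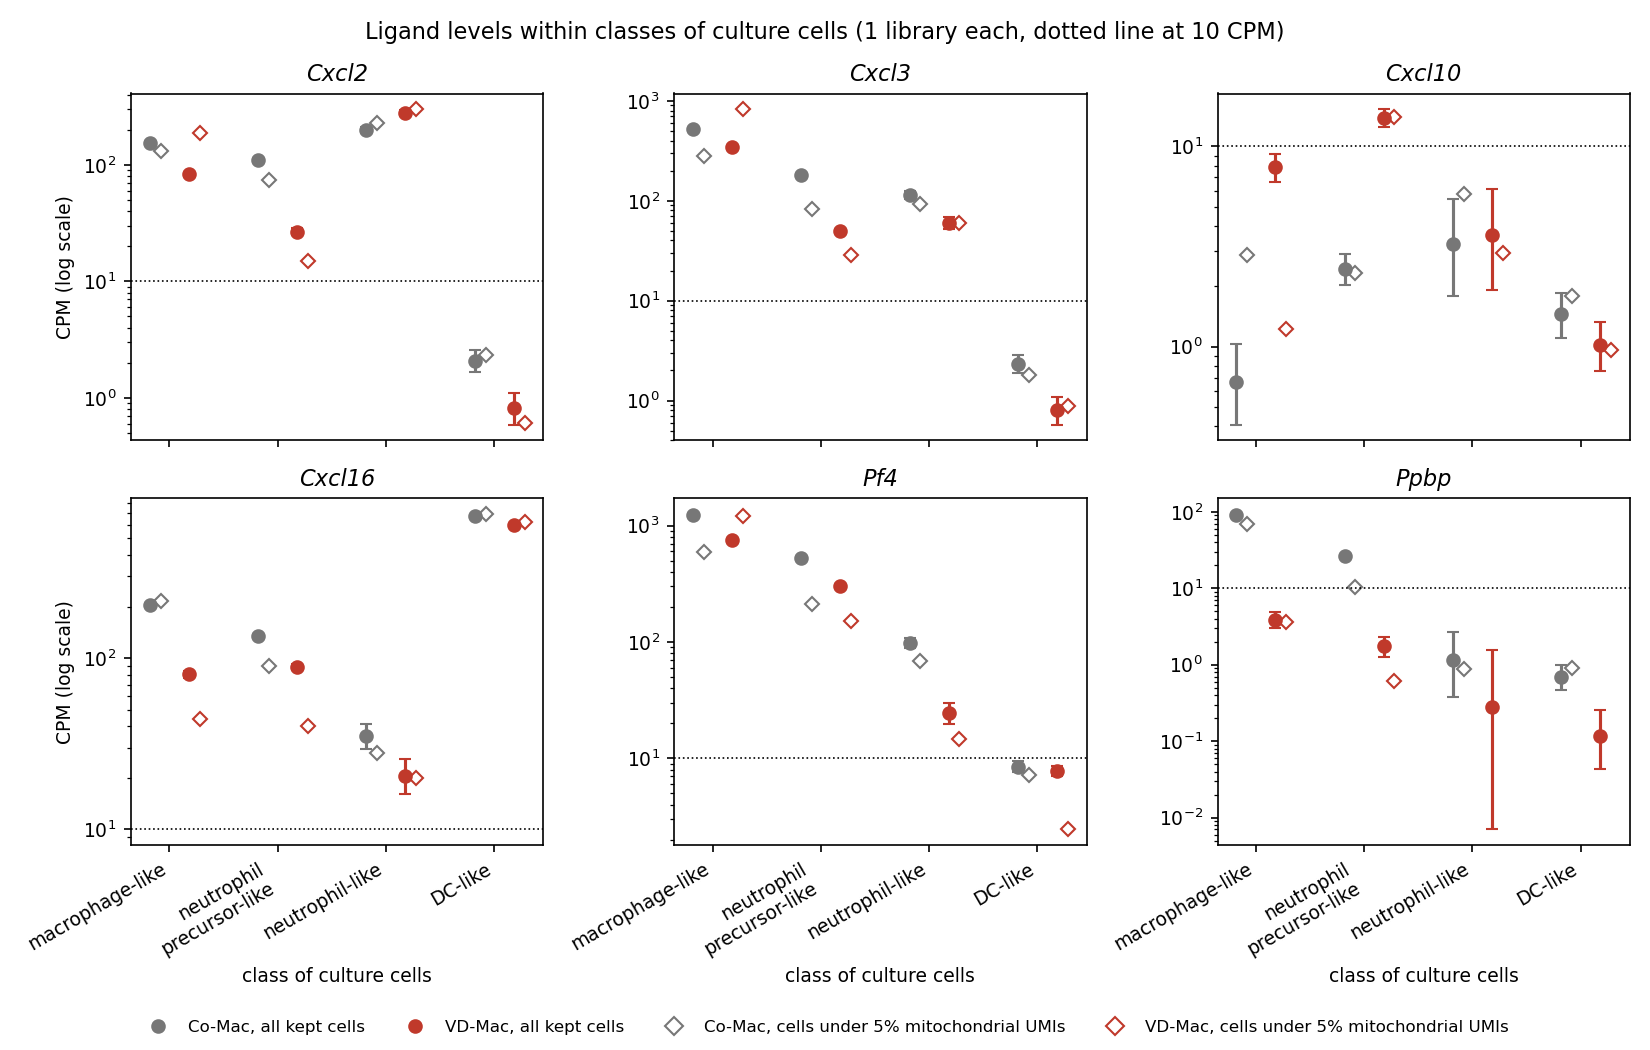
Levels of 6 ligands within the classes of culture cells of Co-Mac and VD-Mac, in CPM on a log scale, with filled points and bars for all kept cells and their exact 95% counting intervals, open diamonds for cells under 5% mitochondrial UMIs and a dotted line at 10 CPM; values of 0 are not drawn. Ppbp is lower in VD-Mac in macrophage-like cells under both limits (89.8 and 3.88 CPM, 68.7 and 3.67 CPM), while Cxcl2, Cxcl3 and Pf4 change sides there. The points of Cxcl10 do so too, but from 15 and 2 UMIs under 5%, with a ratio whose interval includes 0.

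Set against all genes, members were called lower in VD-Mac in 2 of 5 tested cases in macrophage-like cells (Cxcl16 and Ppbp; 5.87% of 7559 genes) and higher in 0 (4.35% of genes). In precursor-like cells 3 of 6 were lower (Cxcl2, Cxcl3 and Ppbp; 4.66% of 7936 genes) and 1 higher (Cxcl10; 3.11%). In neutrophil-like cells 1 of 4 was lower (Pf4; 2.34% of 7615 genes) and 0 higher (1.72%), and in DC-like cells the 1 tested member, Cxcl16, was in neither group (2.43% of 6700 genes lower, 2.30% higher). In mast/basophil-like cells 1 of 4 was lower (Cxcl3, from 7 and 3 UMIs, against 7.03% of 8041 genes) and 0 higher (9.56%). The interval of that Cxcl3 ratio, from -3.91 to 0.80, includes 0. In the unnamed cells 1 of 4 was higher (Cxcl2, at 11.2 and 38.1 CPM; 28.4% of 7287 genes) and 0 lower (6.78%). These cells also lay in different clusters by culture, with 468 of the 493 Cxcl2 UMIs of VD-Mac in cluster 9 and 23 of the 25 of Co-Mac in cluster 8, and under 5% mitochondrial UMIs Cxcl2 was at 11.6 and 8.62 CPM (-0.43, -1.20 to 0.36). In macrophage-like cells under 5% mitochondrial UMIs 3 of 6 were lower (Cxcl14, Cxcl16 and Ppbp; 9.11% of 7628 genes) and 2 higher (Cxcl3 and Pf4; 5.83%). In precursor-like cells under that limit 4 of 6 were lower (Cxcl2, Cxcl3, Cxcl16 and Ppbp; 6.61% of 7863 genes) and 1 higher (Cxcl10; 3.01%).

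The precursor-like class rested on how the clusters fell. Cluster 3, which held its Co-Mac cells, had 3 precursor and 3 other markers among its 10 leading genes, Ccr2, Ly6c2 and Plac8 of the monocyte set among them, and cluster 7, which held its VD-Mac cells, was led by Cyp24a1 and cycling genes. At resolution 0.8 the class kept 101 Co-Mac cells. Cxcl2 was then at 8.35 and 26.6 CPM and Cxcl3 at 8.35 and 49.8 CPM, each with the direction turned. Ppbp, at 0.380 and 1.74 CPM, was under 10 CPM in both cultures, too low to give a direction. All tested members, 5 of 5, were higher, where 16.9% of genes were.

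The pathways around the ligands were counted with the same rule over all cells. Of 17 tested genes of inflammatory induction, 2 were higher and 2 lower in VD-Mac, with Tlr2, a sensor of bacterial lipoproteins, at 107 and 46.7 CPM (-1.20) and Zfp36, which shortens the life of cytokine and Cxcl RNA, at 133 and 273 CPM (1.04). Of 14 tested genes of interferon-gamma induction, 5 were higher and 1 lower, with Gbp2 at 64.0 and 207 CPM (1.70), Gbp5 at 34.3 and 88.9 CPM (1.38), Irf8 at 132 and 307 CPM (1.21) and Ifngr1 at 51.6 and 106 CPM (1.04). Of 5 tested genes of the type I interferon response, 0 were higher and 0 lower. Over all 7732 tested genes 2.16% were higher and 4.63% lower. The list medians were 0.17, 0.40 and -0.26, beside -0.10 over all tested genes.

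Of 9 tested genes that process CXC ligands, 1 was higher and 4 lower, beside 2.16% and 4.63% of all genes. Mmp12, a macrophage elastase that trims CXC chemokines, was at 1864 CPM (1857 to 1871) in Co-Mac and 104.55 CPM (103 to 106) in VD-Mac, a log2 ratio of -4.16, and the neutrophil protease gene Prtn3 at 85.3 and 42.4 CPM (-1.01). By class, 1 of 5 such genes was higher and 1 lower in macrophage-like cells (4.35% and 5.87% of all genes). In neutrophil-like cells these were 1 and 1 of 5 (1.72% and 2.34%). In precursor-like cells 0 of 7 were higher and 1 lower (3.11% and 4.66%). In DC-like cells 0 of 4 were higher and 1 lower (2.30% and 2.43%). Over all cells both tested CXC receptors, Cxcr2 at 6.45 and 11.5 CPM and Cxcr4 at 17.8 and 30.3 CPM, were short of 2-fold. By class, 1 of 1 tested receptor was higher in macrophage-like cells (4.35% of all genes) and 1 of 2 in precursor-like cells (3.11%). In neutrophil-like cells 0 of 2 were called, and in DC-like cells 0 of 1. None of the 8 platelet markers and none of the 4 counted CXC ligands outside the 10 reached 10 CPM over all cells.

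Of 5 tested genes of the vitamin D response, 2 were higher and 1 lower, beside the same shares of all genes (2.16% and 4.63%). Cyp24a1, which breaks down active vitamin D, had 1 UMI in Co-Mac and 36662 in VD-Mac (315 CPM), a log2 ratio of 15.35 with an interval from 12.87 to 20.65, and Vdr, the receptor, was at 51.1 and 135 CPM (1.40). Cyp24a1, a known VD3 target, was thus present in VD-Mac and at 1 UMI in Co-Mac.

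In macrophage-like cells 7 of 18 tested genes of inflammatory induction were higher and 2 lower (4.35% and 5.87% of all genes), but the list median was -0.13, below the -0.04 over all tested genes. Among those called were Il1b at 18.3 and 67.1 CPM (1.88), Il1a at 21.9 and 77.5 CPM (1.82), Zfp36 at 143 and 301 CPM (1.08) and the NF-kB inhibitor gene Nfkbie at 57.2 and 22.0 CPM (-1.38). In precursor-like cells 3 of 17 were higher and 3 lower (3.11% and 4.66% of all genes), with Nfkbia at 217 and 463 CPM (1.09) and Tlr2 at 162 and 70.9 CPM (-1.19). In neutrophil-like cells 2 of 18 were higher and 0 lower (1.72% and 2.34% of all genes).

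Since Cxcl1, Cxcl2 and Cxcl3 lie close together and Cxcl9 and Cxcl10 are known targets of interferon, the stretches from 250 bases before to 50 after the gene starts were read from RefSeq (GRCm38.p6), where 9 of the 10 members matched and Cxcl16 did not. The letters GGNNNTTCC, an NF-kB type motif, stood on either strand in 5 of the 9 (Cxcl1, Cxcl2, Cxcl3, Cxcl9 and Cxcl10), against 18.5% of 32851 promoters of this length. The letters GAAANNGAA, of an interferon response type, stood in 3 of the 9 (Cxcl9, Cxcl10 and Cxcl14), against 8.56%. Neither was found in Cxcl12, Pf4 or Ppbp. A match is a description of letters, not a bound site.

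The 5 promoters with the NF-kB type letters are shown so that their places can be compared, each 5′ to 3′ on the strand of its gene, with capitals marking the letters of either motif. Cxcl1 lies at chr5:90890995-90891294 (plus strand), Cxcl2 at chr5:90903649-90903948 (plus), Cxcl3 at chr5:90785851-90786150 (plus), Cxcl9 at chr5:92328030-92328329 (minus) and Cxcl10 at chr5:92348840-92349139 (minus). The run GGAATTTCC, which reads as the motif on both strands, occurred in Cxcl1, Cxcl2 and Cxcl3, with its first base 70, 96 and 72 bases before the start. Its reverse complement, GGAAATTCC, occurred in Cxcl10 with its first base 158 bases before the start. Cxcl9 and Cxcl10 each added an interferon type match further upstream.
Cxcl1: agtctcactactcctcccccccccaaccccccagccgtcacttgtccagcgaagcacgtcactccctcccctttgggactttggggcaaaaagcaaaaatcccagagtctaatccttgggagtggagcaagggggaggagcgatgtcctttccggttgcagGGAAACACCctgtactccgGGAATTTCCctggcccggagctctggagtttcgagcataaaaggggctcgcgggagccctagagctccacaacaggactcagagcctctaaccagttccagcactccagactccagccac
Cxcl2: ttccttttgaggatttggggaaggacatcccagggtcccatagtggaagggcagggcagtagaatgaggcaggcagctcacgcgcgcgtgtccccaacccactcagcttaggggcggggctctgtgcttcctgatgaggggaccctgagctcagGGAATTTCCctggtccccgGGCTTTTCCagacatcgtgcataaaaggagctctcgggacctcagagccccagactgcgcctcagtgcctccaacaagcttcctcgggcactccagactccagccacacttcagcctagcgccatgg
Cxcl3: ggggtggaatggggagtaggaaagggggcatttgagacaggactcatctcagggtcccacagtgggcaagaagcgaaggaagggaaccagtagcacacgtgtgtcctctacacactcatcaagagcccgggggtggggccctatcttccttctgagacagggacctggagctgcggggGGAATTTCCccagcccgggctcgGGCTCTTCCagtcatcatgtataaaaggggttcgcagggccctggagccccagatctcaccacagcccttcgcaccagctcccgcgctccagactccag
Cxcl9: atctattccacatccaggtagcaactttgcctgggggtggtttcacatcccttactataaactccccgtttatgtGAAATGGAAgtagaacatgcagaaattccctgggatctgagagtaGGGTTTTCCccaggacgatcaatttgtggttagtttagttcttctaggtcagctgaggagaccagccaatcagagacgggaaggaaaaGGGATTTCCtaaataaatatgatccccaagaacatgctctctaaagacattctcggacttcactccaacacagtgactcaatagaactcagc
Cxcl10: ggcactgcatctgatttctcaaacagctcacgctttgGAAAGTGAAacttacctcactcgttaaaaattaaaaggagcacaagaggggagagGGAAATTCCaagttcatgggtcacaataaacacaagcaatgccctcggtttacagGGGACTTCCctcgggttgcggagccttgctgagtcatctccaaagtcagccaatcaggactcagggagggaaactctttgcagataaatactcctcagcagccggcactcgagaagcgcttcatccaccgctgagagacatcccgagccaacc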

How the data were processed

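The deposited matrices held raw UMI counts that the authors had obtained by aligning reads and calling cell barcodes in Cell Ranger 3.1.0, with no filter on cells after that; their own later work used Seurat 3.1.1. Kept barcodes had at least 300 genes, under 100000 gene UMIs and under 10% mitochondrial UMIs, and were clustered with Seurat 5.3.0 in R 4.3.3 (Matrix 1.6.5), the graft alone and both cultures together, with listed genes left out of the variable genes, 15 principal components and resolution 0.5. Each cluster was named for its best-scoring set of marker genes, scored as the average log2 ratio (5 CPM added) against all remaining cells, and stayed unnamed below a score of 0.5, with under 3 markers detected, or with few UMIs and no marker on top. Sums, exact Poisson intervals for CPM, exact binomial intervals for shares and exact conditional binomial intervals for ratios came from Python 3.11.15 with numpy 2.4.6, scipy 1.17.1, pandas 2.3.3, scanpy 1.11.5, anndata 0.12.19 and matplotlib 3.10.9.

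VD-Mac was compared with Co-Mac over all cells and within each class, and clusters were compared within hSTSG. All 10 members are named. Of each list, up to 4 called genes with the largest absolute log2 ratio among those with at least 50 CPM are named, and for each member with at least 50 CPM in its highest graft cluster, the 3 genes most like it. Receptors, cytokines, Iigp1 and other genes outside this rule were chosen after their values were seen. The members and lists were chosen with earlier results of these data known.

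Alternatives changed the cell filters, clustering, thinning, scaling, class weights, fold and level limits. Scrublet's automatic threshold marked 1, 0 and 8 barcodes of Co-Mac, VD-Mac and hSTSG, so doublets were kept, and an alternative left out the 421, 623 and 37 with the highest scores. The hashtag counts of hSTSG were not used, since no label ties a tag to a mouse. The labels name mm9 and the methods GRCh38, while the gene identifiers are mouse Ensembl ones, so the build of the alignment is uncertain. The reference files at hand held no table of protein sequences, so proteins were not compared.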

Additional observations from a re-analysis of the deposited data

Results flagged for a closer look

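The log2 ratio of Cxcl2 in VD-Mac over Co-Mac was 0.49 (0.35 to 0.62) in neutrophil-like cells and -2.05 (-2.16 to -1.94) in neutrophil precursor-like cells. These opposite directions, 2.54 apart, drew attention, and the difference was not tested. At resolution 0.8 the ratio in precursor-like cells was 1.67.

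For Cxcl16 the log2 ratio was 0.84 (0.16 to 1.55) in mast/basophil-like cells and -1.35 (-1.43 to -1.27) in macrophage-like cells. The former came from 28 UMIs in 9 cells of Co-Mac and 54 UMIs in 8 cells of VD-Mac. The share of cells with a UMI was 15% and 10.7% without thinning, at median depths of 9175 and 6934 UMIs. After thinning it was 3.70% of 54 cells and 4.35% of 69 cells, from 2 and 3 cells with a UMI, too few to give a direction. The macrophage-like ratio was -0.25 with each culture clustered alone and -2.28 in cells under 5% mitochondrial UMIs. In the 32 and 46 mast/basophil-like cells under 5% mitochondrial UMIs the ratio was 0.79, with an interval from -0.23 to 1.88 that includes 0. The directions were 2.2 apart, and the difference was not tested.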

How the results depend on the processing

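In this paragraph, shares of all tested genes under the same setting stand in brackets. With a minimum of 1 CPM, 5 of 8 tested members were lower and 1 higher in VD-Mac. Of 11477 genes, 712 were then lower and 390 higher (6.20% and 3.40%). At 1.5-fold 4 of 5 members were lower (Cxcl2, Cxcl3, Pf4 and Ppbp) and 0 higher. All genes then gave 984 lower and 465 higher of 7732 (12.7% and 6.01%). With cells under 5% mitochondrial UMIs, 1 of 5 was lower over all cells (5.25%) and the log2 ratio of Cxcl3 was 0.020, and Cxcl1 (0.24) and Pf4 (0.063) changed sign without having been called before. In macrophage-like cells 1 of 5 was lower with each culture clustered alone (8.26%), 1 of 5 with the highest doublet scores left out (5.66%), and 2 of 6 were higher in cells under 5% mitochondrial UMIs of the same clusters (5.83%). In mast/basophil-like cells 1 of 4 was higher with the highest doublet scores left out (884 of 8054 genes). In precursor-like cells 4 of 6 were lower (6.61%) and 1 higher (3.01%) in cells under 5% mitochondrial UMIs of the same clusters. In that class 0 of 5 were lower (7.34%) and 5 higher (16.9%) at resolution 0.8. The log2 ratios there were 1.67 for Cxcl2 and 2.58 for Cxcl3. That of Ppbp was 2.19, from levels under 10 CPM in both cultures, too low to give a direction. With each culture clustered alone 0 of 5 were lower (5.77%) and 3 higher (7.16%), namely Cxcl10, Cxcl16 and Pf4. The ratio of Ppbp was then 0.46, short of 2-fold and not called. In neutrophil-like cells 2 of 4 were lower at resolution 0.3 (2.40%), and 0 of 4 were lower (2.09%) and 1 higher (2.69%) at resolution 0.8. In hSTSG, 1 member was highest in neutrophil-like cells with cells under 5% mitochondrial UMIs and 1 with clusters of any size, and 1 in Trem2 macrophage-like cells at resolution 0.8 and 1 with cells under 5% mitochondrial UMIs. Cxcl16 was highest in a DC-like cluster also at resolution 0.3, with 30 principal components and without the highest doublet scores. The cause was not tested. The count of members highest in fibroblast-like cells was 5 in all 9 alternatives, and Ppbp was past 2-fold over all cells in all 7, at -4.52 to -4.10. Of the all-cell log2 ratios under alternatives, 45 stayed within the counting interval, 24 moved and 1 of a called gene reversed, while Cxcl16, not called, turned to -0.36 with weighted classes and -0.23 as a mean over cells; of the graft levels 62 stayed and 28 moved. Leaving out the mast/basophil-like cluster, using graft clusters of any size and limiting the same clusters to cells under 5% mitochondrial UMIs were chosen after seeing the data.

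No value was obtained for mast/basophil-like cells with each culture clustered alone. With the same clusters under 5% mitochondrial UMIs this class had 32 and 46 cells, under the minimum of 50, and was left out of the counts above; the log2 ratio of Cxcl16 there was 0.79 (-0.23 to 1.88). With 1 library per group, treatment and library cannot be told apart in the cultures, and the graft has no comparison group. Over all culture cells Cxcl9 and Cxcl12 had too few UMIs for a direction. Thinning to 2000 UMIs left out 157 of 474 neutrophil-like graft cells with Il1f9. RNA from outside the cells was not modelled, and shares in other cells, such as T/NK-like ones in the graft, were the only measure of it. No paired analysis was possible because each group had 1 library and no label pairs them.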
